A study of Drosophila melanogaster with 136 samples.

Results

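The nuclear genes of the fly respiratory chain were followed across all tissue groups of a Drosophila melanogaster expression atlas, with the duplicates named after them set beside the main genes. Members are the array probe sets whose annotated symbol begins with ND-, COX and a digit, UQCR-, ATPsyn, or Sdh and a letter from A to D. The rule found 80 probe sets with 1 gene symbol among the 18769 analysed, and they stand for 72 genes. Of these, 17 are duplicates whose symbol is that of a chain gene with a final L (COX4L for COX4), 4 are numbered duplicates (ND-51L1, ND-51L2, COX6AL2 and COX7AL2), and 51 are main genes. The name ND-MNLL ends in L as well, but it is a main gene of complex I and was counted as one. A further 4 probe sets carry several symbols and were not used.

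The respiratory chain sits in the inner mitochondrial membrane. Complexes I (NADH dehydrogenase) and II (succinate dehydrogenase) feed electrons to ubiquinone, complex III passes them to cytochrome c, complex IV (cytochrome c oxidase) hands them to oxygen, and complex V (ATP synthase) uses the proton gradient to make ATP. Most subunits are encoded in the nucleus, and flies hold retained gene copies for many of them. In the testis the mitochondria of each spermatid fuse into a nebenkern and then stretch along the growing sperm tail, and in the thorax the flight muscle is packed with mitochondria.

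Total RNA was hybridised to 136 Affymetrix Drosophila Genome 2 arrays, 4 for each of 34 groups. All animals were untreated wild-type Canton-S. The 22 adult groups came from flies 7 days old, the 11 larval groups from larvae in the third instar, and the last group was the S2 cell line, grown in culture and derived from embryos. Each array pooled many animals: 60 males for testes (dissected without accessory glands), 30 females for ovaries, 50 of each sex for thoracic muscle, 60 of each sex for adult salivary gland, 25 of each sex for adult carcass (abdominal cuticle and what adheres to it), and 12 of each sex for the whole fly. Fat body came from 30 wandering or 30 feeding larvae, tubules from 30 wandering or 50 feeding larvae, and the whole larva from 30 feeding larvae. Spermathecae came from 60 mated or virgin females and kept the fat body around them. RNA had 1 round of amplification in 28 groups, 2 rounds in mated and virgin spermathecae, another labelling kit in larval trachea, adult eye and adult heart, and a mix in redone mated spermatheca (1 round on 3 arrays, 2 on 1). In 27 groups the titles speak of biological replicates and in 7 of "rep" alone, and the labels do not tell which animals made up each array. A p-value here therefore measures the spread between arrays, which may be technical. The number of arrays limits the precision.

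Signals are intensities scaled to 1 trimmed mean, 100.004, on every array, and a fold is a difference of log2(signal + 10), which understates changes of dim genes. A gene "rose" or "fell" where it changed at least 2-fold with an adjusted p below 0.05 in limma. Signals of different probe sets share no scale, so levels were compared only within a gene. The median probe set stood between 4.84 and 28.78 over all arrays. The 12 testis marker genes (among them dj and Mst87F, which encode proteins of the sperm tail) summed to 12537 to 16162 on testes arrays and to 18.2 to 27.0 on ovary arrays. The 6 flight muscle markers summed to 44788 to 73605 on thoracic muscle arrays and to 3066 to 3901 on whole fly arrays. Within groups, arrays in use correlated at 0.884 to 0.995.

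2 arrays went against their labels and were left out by the rule, so 134 were used. Replicate 4 labelled thoracic muscle held the flight muscle genes fln, Act88F and TpnC4 at 9.93, 2.28 and 0.396, and replicate 2 of the redone mated spermatheca held them at 26327, 18670 and 19277. The members split the same way: SdhB stood at 739 on the array labelled thoracic muscle and at 19395 on the array labelled spermatheca. The main counts, levels and correlations that rest on these groups are given with and without the arrays. Counts by complex, levels after quantile normalization and some values of single genes are given only without the arrays.

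All duplicates were far higher in testes than in ovary. In testes against ovary, 17 of 17 duplicates and 4 of 4 numbered duplicates rose, where 22.9% of the 13513 probe sets tested rose. The log2 fold of the 17 had a median of 6.18 and ran from 3.55 to 7.29, beside a median of -0.15 for all probe sets tested. The ovary means of all 17 duplicates lay below the 10 added to each signal, so the sizes of these folds depend on that constant and understate the change. Among the main genes 38 of 51 folds were negative, with a median of -0.66, and 7640 of all 13513 were. Of the 51, 3 rose, 17 fell and 31 were not called. The share that rose was below the 22.9% of all probe sets, and the share that fell was near the 32.5% of all. The measurement follows RNA per tissue, so fewer cells of a type and less RNA per cell cannot be told apart. At an adjusted p below 0.05 alone (limma), 4742 of all 13513 probe sets were higher in testes and 6211 lower. Differences between the gonads are thus common. How many probe sets had no overlap of arrays between a pair of groups was not counted, for the gonads or for later pairs. The pairwise separations given below thus stand without that share.

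Complex I had 3 duplicates and 2 numbered ones on the array. ND-20L, named after the iron-sulphur subunit ND-20 at the end of the electron path, had signals of 471, 459, 490.1 and 478 on the testes arrays and 0.731, 1.32, 4.67 and 2.18 on the ovary arrays. ND-24L, whose namesake is part of the NADH-binding module, stood at 564, 535, 638 and 518 in testes and 0.427, 0.991, 0.835 and 0.413 in ovary. Every testes array lay far above every ovary array for both genes, and the ovary arrays were near background. The log2 folds were 5.32 (SE 0.096, adjusted p = 3.56e-12) for ND-20L and 5.74 (SE 0.076, adjusted p = 4.53e-13) for ND-24L. ND-B14.5AL, copy of the accessory subunit ND-B14.5A, had 849, 822, 667 and 685 in testes against 4.12, 3.09, 3.67 and 3.42 in ovary, with a log2 fold of 5.81 (SE 0.090, adjusted p = 1.22e-12). ND-51L1 and ND-51L2 are named after ND-51, the subunit that binds NADH. ND-51L1 stood at 303, 314, 307 and 286 in testes and 1.19, 0.463, 0.313 and 0.669 in ovary, and ND-51L2 at 267, 251, 292 and 306 in testes and 1.28, 4.67, 1.25 and 2.29 in ovary. Both numbered genes were again separated on every array, by log2 folds of 4.87 and 4.55.

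Most main genes of complex I were not called between the gonads. Of 27, 2 rose, 2 fell and 23 were not called, with a median log2 fold of -0.14. Over all probe sets tested 22.9% rose and 32.5% fell. ND-51 fell by 2.14 and ND-20 by 1.58 on the log2 scale, and both have duplicates. ND-20 had 149, 149.7, 156 and 142 in testes and 463, 458, 478 and 468 in ovary, so the ND-20 and ND-20L arrays separated in opposite directions. ND-19, an accessory subunit without a duplicate here, was nearly level at 431, 437, 432 and 403 in testes and 408, 439.5, 425 and 428 in ovary (log2 fold 0.00), as was ND-B16.6 at -0.04. ND-B14.5A, the main gene of ND-B14.5AL, had 223, 234, 281 and 276 in testes and 406, 446, 376 and 394 in ovary, and its log2 fold of -0.66 missed the fold threshold. The 2 that rose were accessory subunits. ND-B8 had 197, 148, 146 and 139.6 in testes and 2.33, 3.35, 0.245 and 0.471 in ovary, a log2 fold of 3.85 (SE 0.12, adjusted p = 3.02e-10). ND-13A had 1874, 1672, 1732 and 1743 in testes and 569, 622, 593 and 637 in ovary, a log2 fold of 1.52 (SE 0.067, adjusted p = 3.65e-09). ND-B8 was thus near background in the ovary, while ND-13A was well measured in both gonads.

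Complex II is also the succinate dehydrogenase of the citrate cycle. SdhAL, named after the flavoprotein SdhA, had 482, 483, 405 and 474 in testes and 0.489, 0.521, 0.819 and 0.424 in ovary. SdhBL, named after the iron-sulphur subunit, had 1297, 1226, 1048 and 1041 in testes and 0.973, 0.810, 5.69 and 5.01 in ovary. SdhCL, named after a membrane anchor, had 909.9, 842, 869.5 and 911 in testes and 3.39, 4.75, 0.763 and 0.730 in ovary. None of the arrays overlapped between the gonads, and the 3 log2 folds were 5.47 (SE 0.073, adjusted p = 4.56e-13) for SdhAL, 6.48 (SE 0.14, adjusted p = 1.35e-11) for SdhBL and 6.18 for SdhCL. The main gene SdhB, at 73.5, 81.8, 78.9 and 87.4 in testes against 389, 405, 399 and 389 in ovary, fell by 2.17 (SE 0.066, adjusted p = 1.89e-10). The anchors SdhC (-0.72) and SdhD (0.68) did not pass the fold threshold. SdhA itself was not analysed here.

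In complex III, UQCR-11L and UQCR-14L are copies of small accessory subunits. UQCR-11L had 1014, 938, 855 and 861 in testes and 5.04, 1.74, 4.42 and 0.443 in ovary, a log2 fold of 6.18 (SE 0.12, adjusted p = 6.39e-12). UQCR-14L had 802, 787, 643 and 611 in testes and 0.652, 3.41, 0.254 and 0.582 in ovary, a log2 fold of 6.004. Of the 4 main genes 1 rose and 2 fell, where 22.9% of all probe sets rose and 32.5% fell. UQCR-Q, another small subunit, had 1066, 1022, 1068 and 982 in testes and 180.3, 206, 179 and 204 in ovary, a log2 fold of 2.37 (SE 0.072, adjusted p = 1.84e-10), and no array overlapped. UQCR-14 had 243, 213, 253 and 243 in testes and 1041, 1093, 1042 and 1075 in ovary and fell by 2.12 on the log2 scale, opposite to its duplicate. UQCR-6.4 also fell, with a log2 fold of -1.12. The main gene UQCR-11 was dim in both gonads, at 5.37 ± 2.64 in testes and 14.04 ± 1.71 in ovary (SD, n = 4 each), so its log2 fold of -0.66 says little.

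Complex IV had 5 duplicates and 2 numbered ones. COX4L is named after COX4, the largest nuclear subunit. It had 2236, 2138, 1999 and 1893 on the testes arrays and 4.62, 2.74, 0.750 and 5.50 on the ovary arrays, a log2 fold of 7.29 (SE 0.12, adjusted p = 1.43e-12). COX7AL had 1614, 1572, 1340.0 and 1333 in testes and 0.176, 1.54, 0.394 and 0.513 in ovary, a log2 fold of 7.11 (SE 0.085, adjusted p = 2.52e-13). COX5BL, whose namesake binds zinc, had 1564, 1482, 1588 and 1474 in testes and 3.36, 2.56, 0.516 and 2.46 in ovary, a log2 fold of 6.98 (SE 0.082, adjusted p = 2.34e-13). In all 3 genes the ovary arrays lay at background and the testes arrays lay close together. COX6AL had 1266, 1146, 1165 and 1249 in testes and 1.27, 6.18, 1.42 and 1.12 in ovary, with a log2 fold of 6.62. COX6CL had 1606, 1677, 1350.0 and 1321 in testes and 7.14, 6.31, 6.84 and 8.51 in ovary, with a log2 fold of 6.44. COX6AL2 reached 721, 659, 687 and 699.5 in testes and 1.03, 0.886, 0.441 and 0.868 in ovary, a log2 fold of 6.02. COX7AL2 had 73.5, 86.97, 81.6 and 87.1 in testes and 6.27, 4.91, 6.50 and 4.67 in ovary, a log2 fold of 2.56 (SE 0.076, adjusted p = 1.45e-10).

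All 7 main genes of complex IV had a negative fold in testes against ovary, with a median of -1.90. Of these 5 fell, where 32.5% of all probe sets fell. COX7B had 235, 231, 209.6 and 235 in testes and 1603, 1604, 1627 and 1592 in ovary, and its log2 fold of -2.77 (SE 0.062, adjusted p = 1.72e-11) was the largest decrease of any main gene. COX4 had 407, 392, 402 and 409.9 in testes and 1536, 1588, 1633 and 1721 in ovary, a log2 fold of -1.98, so the gonads were separated for COX4 and COX4L in opposite directions. COX5B (-1.88), COX7C (-2.06) and COX8 (-1.90) fell as well. COX7A, at 738, 845, 810.3 and 843 in testes and 1482, 1581, 1556 and 1584 in ovary, differed by -0.93 and missed the fold threshold, and COX5A differed by -0.24.

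COX7C has another probe set, dimmer on average, that ran the other way. It read 677, 725, 902 and 716 in testes, 1.81, 0.833, 1.81 and 3.78 in ovary and 52.7, 50.5, 62.01 and 71.2 in the whole fly. The brighter COX7C probe set averaged 248 ± 24.1 in testes, 1059 ± 31.3 in ovary and 2043 ± 219 in the whole fly (SD, n = 4 each). The dimmer one was thus highest in testes, the group where the brighter one was lowest of these 3, and the value of COX7C depends on which is read. COX7CL, the duplicate of this gene, has no probe set with a single symbol and was not analysed here. Among the other main genes with more than 1 probe set, the additional probe sets above background were lower in testes than in ovary, as the brightest ones were.

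Complex V had 4 duplicates. ATPsynCF6L, named after a subunit of the peripheral stalk, had 1143, 1064, 1194 and 1273 in testes and 3.06, 0.499, 0.474 and 3.69 in ovary, a log2 fold of 6.63 (SE 0.11, adjusted p = 1.56e-12). ATPsynGL, named after a small subunit of the membrane part, had 1052, 1018, 1056 and 1060.1 in testes and 4.40, 1.40, 0.464 and 0.631 in ovary, a log2 fold of 6.51. ATPsynbetaL had 215, 242, 188 and 191 in testes and 3.41, 7.35, 9.23 and 6.46 in ovary, a log2 fold of 3.73. ATPsynepsilonL had 181, 197, 189 and 184 in testes and 7.87, 4.25, 5.67 and 10.7 in ovary, a log2 fold of 3.55 (SE 0.11, adjusted p = 2.03e-10). For these 4 genes no array overlapped between the gonads, and the share of all probe sets with such a separation was not counted.

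Of the 10 main genes of complex V, 7 fell, where 32.5% of all probe sets did, and the median log2 fold was -1.38. ATPsynB (0.18), ATPsynE (-0.35) and ATPsynF (-0.34) were not called. ATPsynbeta, the catalytic subunit, had 248, 268, 279 and 238 in testes and 1781, 1828, 1691 and 1729 in ovary, a log2 fold of -2.72 (SE 0.070, adjusted p = 4.85e-11). ATPsynC, which forms the rotor ring, had 438, 441, 437 and 501 in testes and 2377, 2485, 2419.6 and 2522 in ovary, a log2 fold of -2.41 (SE 0.067, adjusted p = 9.48e-11). Each ovary array was several times every testes array for both. The central stalk genes ATPsyndelta (-2.09) and ATPsyngamma (-1.52) and the peripheral stalk genes ATPsynO (-1.68), ATPsynD (-1.25) and ATPsynCF6 (-1.21) fell too.

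**Figure D1:**
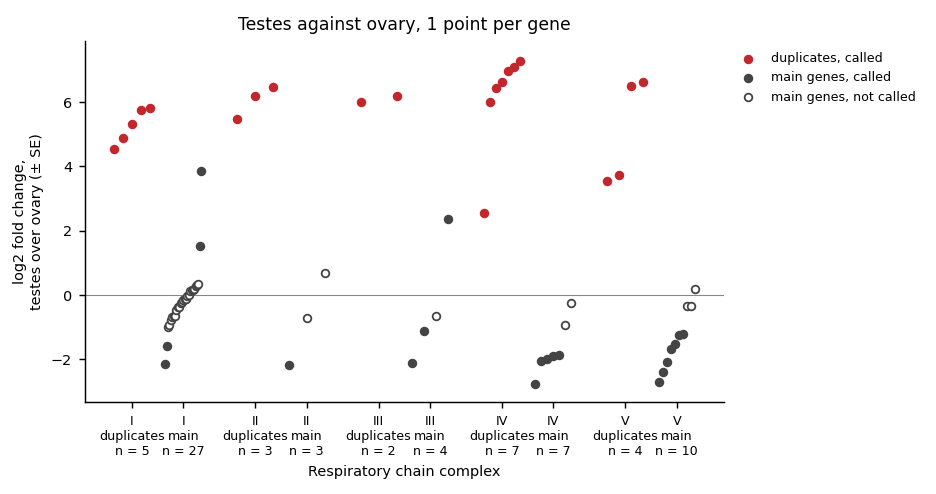
Each point is 1 gene, placed by complex, with its log2 fold of testes over ovary (4 arrays each) on the vertical axis and bars of 1 SE, mostly within the points. Filled points changed at least 2-fold with an adjusted p below 0.05 in limma and open ones did not. The 17 duplicates lie between 3.55 and 7.29, the 4 numbered ones start at 2.56 (COX7AL2), and the highest main gene is ND-B8 at 3.85.

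A duplicate and its main gene can also be set against each other within an array, by the log2 ratio of their signals. The difference in this ratio between the gonads is the duplicate's fold less the main gene's fold on the same arrays. It therefore restates those folds and is no separate test of them. The ratio was higher in testes than in ovary in 12 of 12 pairs with an L duplicate and in 4 of 4 with a numbered one. In that fit 23% of all features were higher, but nearly all of them are folds of single probe sets. That share is therefore no background for ratios, and ratios of other gene pairs were not computed. For the L duplicates the difference in log2 ratio had a median of 7.94. It was 6.45 (SE 0.13, adjusted p = 8.26e-12) for ATPsynbetaL and ATPsynbeta and 9.27 (SE 0.12, adjusted p = 3.51e-13) for COX4L and COX4, the ends of its range. For the numbered ones it lay between 3.50 (COX7AL2) and 7.43. The ovary means of all L duplicates lay below the constant added to each signal. The sizes of these differences thus depend on that constant, and what an array shares cancels only in part. UQCR-11, the main gene of UQCR-11L, was itself dim in both gonads. The main gene of COX6AL and COX6AL2 is levy, the fly COX6A gene, which falls outside the symbol rule. In 11 pairs both genes are members: in 7 of them the duplicate rose and the main gene fell, and in 4 the duplicate rose and the main gene was not called. Over all probe sets, 22.9% rose and 32.5% fell in testes against ovary.

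The same testes arrays were also set against the whole fly and against the mean of the other 19 dissected adult tissue groups. Each group had equal weight in that mean, and mated, virgin and redone mated spermatheca entered as separate groups. The 3 comparisons share their testes arrays and are given side by side. Against the whole fly, which contains the testes of its males, all 17 duplicates rose (20.3% of 12696 probe sets did), with log2 folds of 2.47 to 3.60 and a median of 3.31. Against the mean of the other tissues, all 17 rose (17.1% of 17518 did), with log2 folds of 3.31 to 7.02 and a median of 5.89. Of the main genes, 1 rose and 35 fell against the whole fly, where 40% of all probe sets fell and the median over all was -0.63. Against the mean of the other tissues 2 rose and 45 fell, where 24.8% of all fell and the median over all was -0.30. The main genes' medians were -1.26 and -1.76 in these 2 comparisons. With the left-out arrays kept, the counts against the mean of the other tissues stayed at 17, 2 and 45, with a main gene median of -1.76. Against the whole fly the main genes SdhB (-3.67), COX7B (-3.43), ATPsynbeta (-3.41) and UQCR-14 (-3.32) fell most, and SdhD (-0.04) and ND-15 (-0.26) differed least.

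The main genes that fell in testes against the mean of the other tissues were also counted by complex. They were 23 of 27 in complex I, 2 of 3 in II, 3 of 4 in III, 7 of 7 in IV and 10 of 10 in V, where 24.8% of all probe sets fell. The largest decreases were those of COX7B (-3.91), UQCR-14 (-3.77), SdhB (-3.61) and COX7C (-3.59 by its brighter probe set, and 0.93 by the mean of its probe sets). UQCR-Q rose in all 3 comparisons, by 2.37 against ovary, 1.15 against the whole fly and 1.14 against the mean of the other tissues on the log2 scale. ND-B8 rose by 3.85 against ovary and 2.88 against the mean of the other tissues, and was not called against the whole fly at 0.96. ND-13A (0.34) and ND-B12 (-0.57) differed least from the mean of the other tissues. The numbered duplicate COX7AL2 fell by 3.91 against the whole fly, while ND-51L1, ND-51L2 and COX6AL2 rose in all 3 comparisons.

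Across all 34 groups, each of the 17 duplicates had its highest mean in testes, and all 4 testes arrays lay above every other array of the atlas. The same held for 3 of the 4 numbered duplicates, for 0 of 51 main genes, and for 10.7% of all probe sets. Outside testes the duplicates were close to background: the median of the 33 other group means ran from 1.93 (COX7AL) to 14.4 (UQCR-11L). COX4L shows the usual form, with testes arrays of 1893 to 2236, a median of 5.78 over the other groups and a highest single array elsewhere of 782. That array was of wandering larval fat body, which was the next highest group for 13 of the 17. The whole fly came next for 3, and adult salivary gland for 1, COX5BL.

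**Figure D2:**
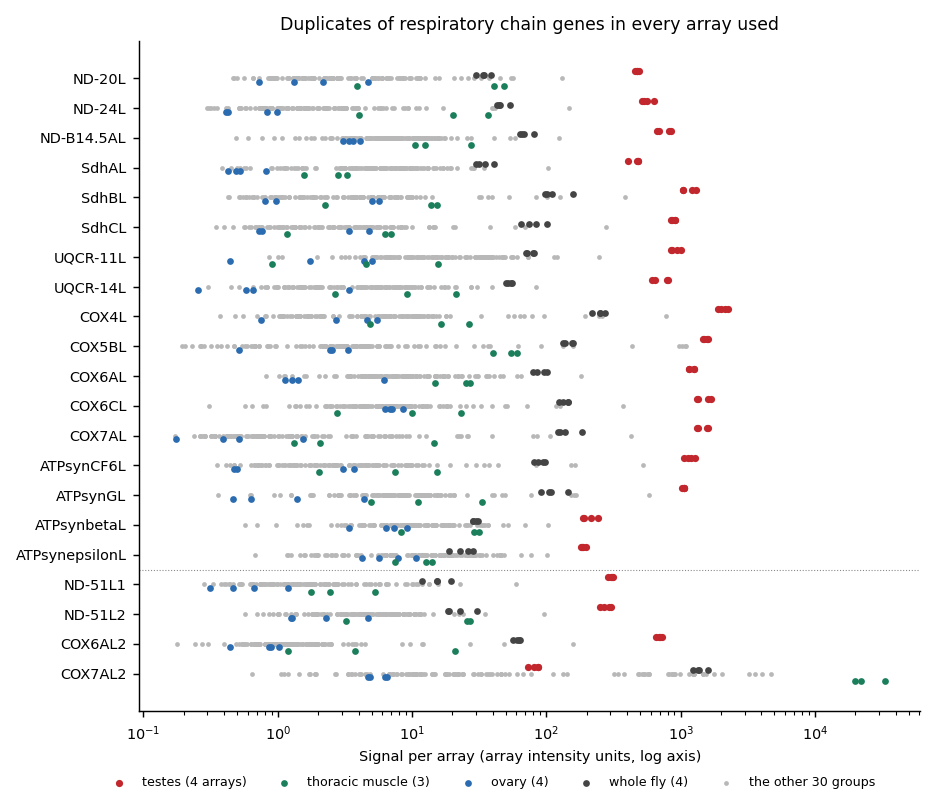
Each row is 1 duplicate, with the numbered ones below the dotted line, and each point is 1 array, placed by its signal in intensity units on a log axis. The testes arrays stand above all other arrays for the 17 duplicates and for ND-51L1, ND-51L2 and COX6AL2, while COX7AL2 is highest in thoracic muscle.

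COX5BL was the exception among the duplicates outside testes. On the adult salivary gland arrays it read 1098, 976, 1084 and 1021, against 1564, 1482, 1588 and 1474 in testes and 138, 132, 155 and 159 in the whole fly. The salivary gland arrays were below all testes arrays and far above those of the whole fly. The other 16 duplicates read 0.869 to 37.1 there. The testis markers summed to 81.5 to 122 on these arrays, against 12537 to 16162 in testes, with 0 of 12 over a signal of 100 and 9 of 12 below the 40th percentile. Larval salivary gland arrays held COX5BL at 0.267 to 8.84. The main gene COX5B read 1733, 1844, 2114 and 2156 in adult salivary gland. COX5B and COX5BL are near neighbours in the genome, with 1 protein-coding gene between them in the Release 6 plus ISO1 MT assembly, and the pair COX7A and COX7AL has 2 between them.

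Across the atlas the main genes were highest in thoracic muscle and lowest in testes and wandering fat body. A group's main gene level was taken as the median, over the 51 genes, of the gene's log2 signal less its mean over the groups. It was 3.47 ± 0.41 in thoracic muscle (SD, n = 3; arrays 3.09, 3.90 and 3.43), then 0.92 ± 0.13 in adult carcass, 0.65 ± 0.03 in adult salivary gland, 0.58 ± 0.15 in redone mated spermatheca (n = 3) and 0.54 ± 0.05 in adult hindgut (n = 4 each where not given). Larval tubule, adult eye, adult heart, adult fat body, thoracoabdominal ganglion, larval hindgut, virgin spermatheca, larval carcass, adult head, mated spermatheca and adult midgut followed, in that order, between 0.46 and 0.02. Adult trachea, larval midgut, wing, ejaculatory duct, crop, adult brain, whole fly, larval salivary gland, whole larva, wandering tubule, accessory gland and feeding fat body ran from -0.003 to -0.55, and larval trachea stood at -0.59. At the low end were larval CNS (-0.79 ± 0.09), S2 cells (-0.90 ± 0.07), ovary (-0.97 ± 0.02), wandering fat body (-1.33 ± 0.19) and testes (-1.50 ± 0.07). Array ranges did not overlap between muscle and carcass, carcass and adult salivary gland, larval trachea and larval CNS, or ovary and wandering fat body. All other neighbours in this order overlapped, wandering fat body and testes among them. With the left-out arrays kept, thoracic muscle stood at 2.73 ± 1.52 and redone mated spermatheca at 1.40 ± 1.64 (SD, n = 4 each). After quantile normalization thoracic muscle (2.08), adult carcass (0.81), wandering fat body (-1.29) and testes (-1.56) kept their first, second, second-last and last places. Places between them moved: adult brain went to 0.42 and the whole fly to 0.40 (places 5 and 8, against 22 and 23), thoracoabdominal ganglion to 0.63 (place 3 against 10), larval CNS to -0.30 (26 against 30), adult salivary gland to 0.41 (7 against 3) and redone mated spermatheca to 0.20 (13 against 4).

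**Figure D3:**
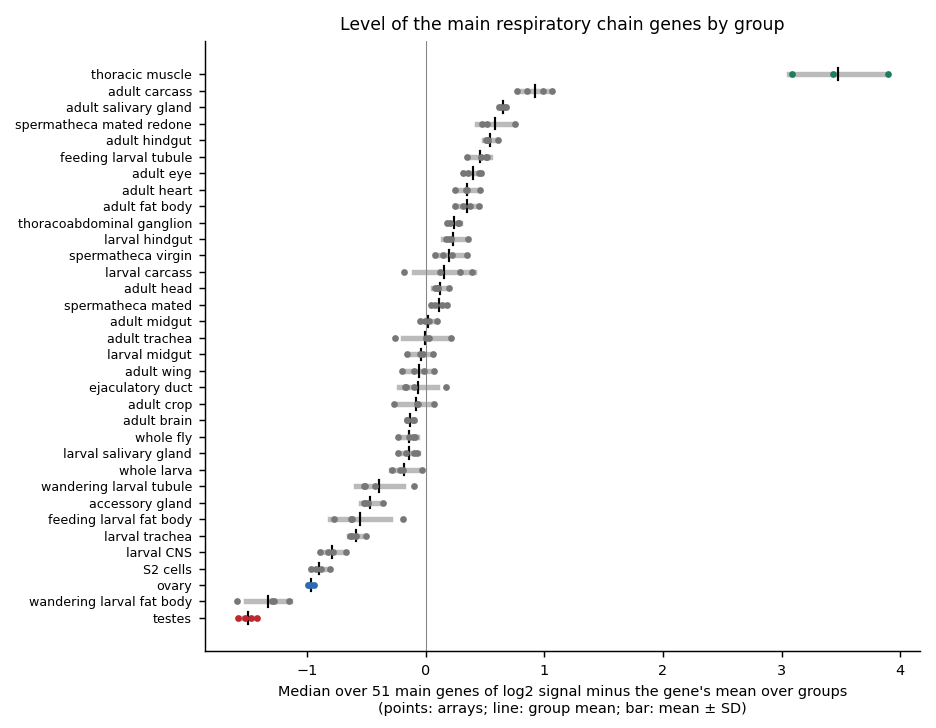
Groups run down the page by their main gene level, in log2 units, with points for arrays and a bar for the mean ± SD. Thoracic muscle stands apart at 3.47, and testes lie lowest at -1.50, overlapping wandering fat body.

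By complex, the testes level was -1.32 for I, -2.20 for II, -1.54 for III, -2.86 for IV and -2.31 for V, and the thoracic muscle level 3.68, 3.98, 3.69, 3.23 and 3.01 in the same order. With the left-out arrays kept, the muscle levels were 2.85, 2.91, 2.93, 2.58 and 2.42, each with an SD over 1 log2 unit. Complex I thus stood highest of the 5 in testes and complex IV lowest. Testes had the lowest mean of any group for 31 of 51 main genes and wandering fat body for 12. For 19 of 51 all testes arrays lay below every other array, which held for 7.34% of all probe sets. Over the 34 groups, the correlation of a main gene with the median of the other main genes had a median of 0.94, and 45 genes reached 0.8. These points share arrays and the common scaling, and muscle weighs heavily in them: over the 33 groups without muscle the median was 0.88 and 41 genes reached 0.8. With the left-out arrays kept, the medians were 0.95 and 0.92 and the counts 45 and 44. The genes least like the rest without muscle were ND-B8 (-0.05), UQCR-11 (0.26), UQCR-Q (0.32), ND-B12 (0.39) and ATPsynbeta (0.43), while COX7A was at -0.01 with muscle and 0.84 without it. With the left-out arrays kept, COX7A was at 0.33 with muscle and 0.71 without it.

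Nearly all main genes were higher in thoracic muscle than in the whole fly. Of 51 main genes 49 rose, where 16.8% of 13613 probe sets rose, with a median log2 fold of 3.58 beside -0.34 for all probe sets. All main genes of complexes II, III and V rose, with 26 of 27 of complex I and 6 of 7 of complex IV. For 49 main genes all 3 muscle arrays lay above every other array of the atlas, which held for 3.77% of all probe sets. With the array labelled muscle replicate 4 kept this held for 0 main genes and 0.016% of all probe sets, though 49 still had their highest mean in muscle. ND-B8 had 5424, 5989 and 4219.9 in thoracic muscle and 143, 47.4, 54.02 and 83.4 in the whole fly, a log2 fold of 5.92 (SE 0.33, adjusted p = 1.44e-06). UQCR-Q had 7809, 16504 and 9977 in thoracic muscle and 438, 394, 481 and 533 in the whole fly, a log2 fold of 4.54 (SE 0.26, adjusted p = 1.44e-06). ND-75, the largest iron-sulphur subunit of complex I, had 9409.8, 14226 and 11357 in thoracic muscle and 563, 581, 483 and 475 in the whole fly, a log2 fold of 4.43. Muscle and whole fly arrays were wide apart in all 3 genes. The share of all probe sets with such a separation was not counted. Muscle replicate 2 was the highest for UQCR-Q, ND-B8 and ND-75 alike. ND-B14.7 (4.48) and UQCR-11 (4.44) followed UQCR-Q by size, and ND-B12, a dim gene, was not called at 0.71. With that array kept, the main genes' median was 2.87, UQCR-Q stood at 3.59, ND-75 at 3.44, ND-B14.7 at 3.70 and UQCR-11 at 3.35, all still called, and ND-B8 at 3.73 was not (adjusted p = 0.117, limma).

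The duplicates were lower in muscle. All 17 folds were negative and 14 of the 17 fell, where 32.3% of all probe sets fell, with a median of -1.81 (14 and -1.92 with the array labelled muscle replicate 4 kept). COX4L had 16.5, 4.86 and 26.4 in thoracic muscle and 219.6, 251, 251 and 272 in the whole fly, a log2 fold of -3.41 (SE 0.28, adjusted p = 1.14e-05). COX7AL fell by 3.33, and ND-20L, ATPsynbetaL and ATPsynepsilonL were not called. The testis markers moved with them: they summed to 185 to 242 on thoracic muscle arrays and to 2234 to 2801 on whole fly arrays, and their part in the result was not tested.

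A pair of COX7A genes went against the general pattern. COX7A encodes a small subunit of complex IV, and in mammals that subunit has separate forms in heart and skeletal muscle and in other tissues. In the fly arrays COX7A had 477, 318 and 572 in thoracic muscle and 1803, 1811, 1962 and 2085 in the whole fly, a log2 fold of -2.09 (SE 0.21, adjusted p = 3.57e-05), and it was the only main gene that fell. COX7AL2 had 19923, 33212 and 22046 in thoracic muscle and 1593, 1342, 1361 and 1229.7 in the whole fly, and rose by 4.14 (SE 0.21, adjusted p = 8.78e-07). The groups were separated for both genes, in opposite directions. The 2 arrays left out followed the flight muscle genes and not the labels here too. The array labelled thoracic muscle replicate 4 had COX7A at 3796 and COX7AL2 at 25.7, and the array labelled redone mated spermatheca replicate 2 had COX7A at 366 and COX7AL2 at 31279. With both arrays kept, 48 main genes rose in limma and 0 fell. Neither COX7A (log2 fold -1.32, adjusted p = 0.128) nor COX7AL2 (1.79, adjusted p = 0.461) was then called.

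COX7AL2 was bright only in adult groups of this atlas. Among the 22 adult groups, 10 had a mean of 300 or more: after thoracic muscle, adult carcass read 3228 to 4729.6 and adult heart 1245 to 2019 over their 4 arrays. The flight muscle markers summed to 8452 to 13832 in adult carcass, against 3066 to 3901 in the whole fly, and their part in the carcass value was not tested. Over the 11 larval groups its arrays lay between 0.640 and 17.9. In larval carcass COX7AL2 read 1.76 to 10.3 while COX7A read 2912 to 4452. COX7A in turn was highest in adult salivary gland, at 6265 to 6851. In whole larvae against the whole fly COX7AL2 fell by 6.46 on the log2 scale (SE 0.18, adjusted p = 1.63e-10).

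**Figure D4:**
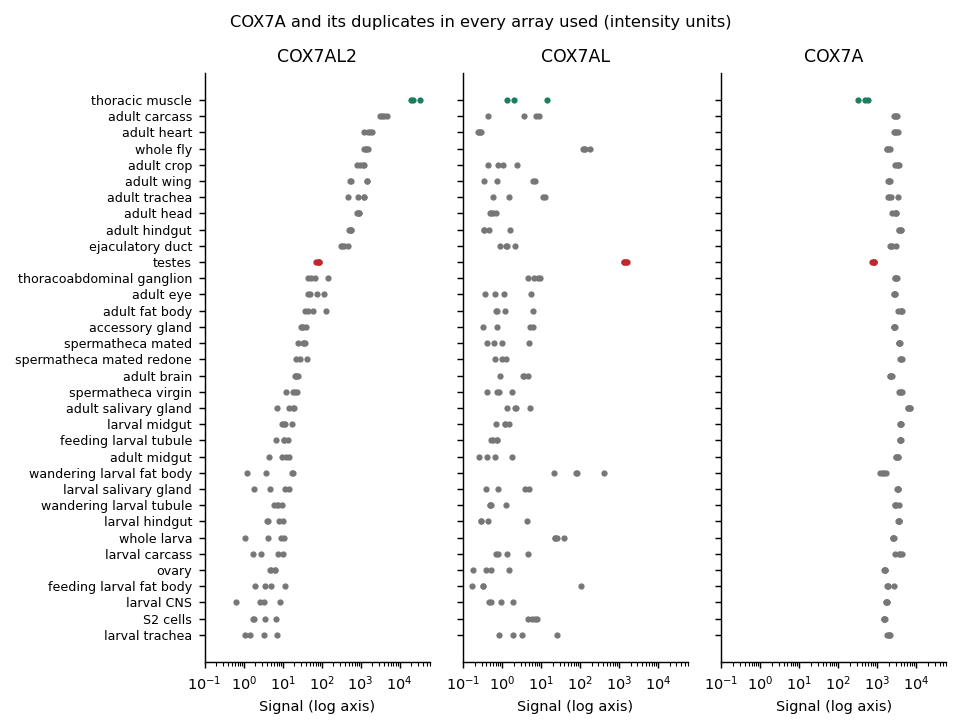
Signal in intensity units on a log axis for each array used, by group, with a panel for each COX7A gene. In thoracic muscle COX7AL2 lies at 19923 to 33212 and COX7A at 318 to 572, and COX7AL is highest in testes, at 1333 to 1614.

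The fat body comparison set wandering larvae, which have left the food, against feeding ones. By the labels the fat was subcutaneous in wandering and lateral in feeding larvae, so stage and site cannot be told apart. The 5 fat body markers summed to 15482 to 23913 in wandering and to 18740 to 23068 in feeding samples. Of 50 main genes tested, 49 had a negative fold, with a median of -0.74 beside 0.10 for all probe sets, and 12 fell, where 4.72% of 12234 probe sets fell. The share that fell was 7 of 10 in complex V, 3 of 7 in complex IV and 2 of 26 in complex I. ATPsynC had 1707, 1035, 1572 and 1198 in wandering and 3339, 4884, 3330.3 and 2706 in feeding fat body, a log2 fold of -1.36 (SE 0.23, adjusted p = 0.00559). COX7B had 1132, 654, 870.4 and 909 in wandering and 2017, 3101, 1989.5 and 1826 in feeding fat body, a log2 fold of -1.31 (SE 0.23, adjusted p = 0.00578). The arrays did not overlap for either gene, and the share of all probe sets with such a separation was not counted. ATPsyngamma (-1.30) and ATPsyndelta (-1.24) came next, and SdhD (-0.05) and UQCR-Q (-0.02) differed least. This count depends on single arrays: it was 7 without wandering replicate 2 and 5 without feeding replicate 2. It was 4 after quantile normalization, which moved the median of all probe sets to -0.12. Wandering replicate 2 had the lowest ATPsynC (1035) and COX7B (654) of the wandering arrays and also the highest testis marker sum (5412), whose part in the result was not tested.

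The duplicates had higher means in wandering than in feeding fat body, but how many were called depended on single arrays. All 17 had a positive fold, with a median of 1.59, and 10 had an unadjusted p below 0.05. Only ATPsynepsilonL was called, with a log2 fold of 1.27 (SE 0.32, adjusted p = 0.0267), where 3.99% of all probe sets rose. It read 39.98, 100.5, 65.1 and 77.5 in wandering and 17.4, 17.2, 16.04 and 44.9 in feeding fat body, and the arrays overlapped. COX4L read 63.2, 782, 246 and 194 in wandering and 2.87, 8.40, 1.12 and 259 in feeding fat body, so feeding replicate 4 stood with the wandering arrays. Summed over the 17 duplicates, the signal was 474, 5006, 1641 and 1217 in wandering and 106, 99.8, 165 and 1609 in feeding fat body. The 12 testis markers followed array by array, with sums of 512, 5412, 1878 and 1358 in wandering and 69.4, 55.9, 117 and 1754 in feeding fat body. As a percentage of the testes mean, the duplicates stood at 2.91, 30.7, 10.1 and 7.47 and the markers at 3.60, 38.1, 13.2 and 9.56 in wandering fat body. In feeding fat body the duplicates stood at 0.653, 0.613, 1.01 and 9.88 and the markers at 0.489, 0.394, 0.826 and 12.4. Of the markers themselves 12 were tested and 0 were called (limma, with 6 at an unadjusted p below 0.05), though all 12 folds were positive. The larval gonads lie within the fat body, and the part of testis RNA in these values was not tested. Without feeding replicate 4, 13 duplicates were called, and without wandering replicate 2, 3 or 4 or feeding replicate 1, 2 or 3 none was.

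**Figure D5:**
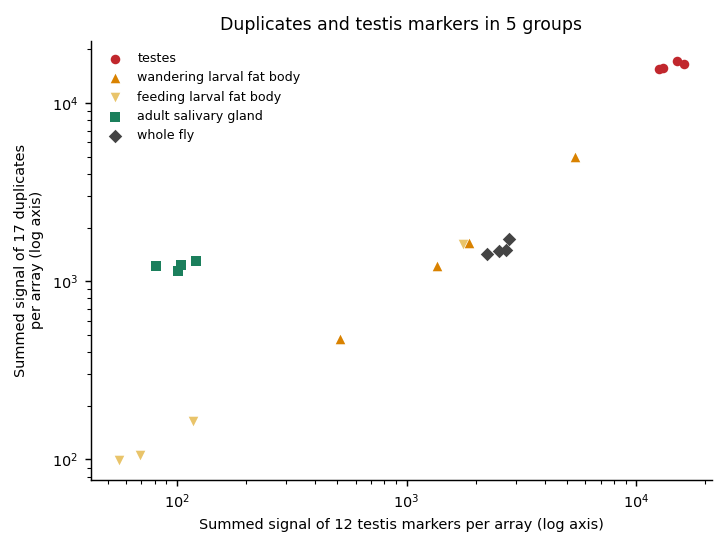
Each point is 1 array of 5 groups, with the summed signal of the 12 testis markers across and that of the 17 duplicates up, both on log axes. Feeding fat body replicate 4, at 1754 and 1609, lies among the wandering fat body arrays.

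In larval Malpighian tubule, the excretory organ, main genes fell in wandering larvae as well, most of them of complex I. Of 50 tested, 17 fell, where 3.53% of 12254 probe sets fell, with a median of -0.89 beside 0.08 for all. Each of the 50 folds was negative, and 48 had an unadjusted p below 0.05. Of complex I 14 of 26 fell, against 1 of 3 in complex II, 2 of 10 in complex V and none in III and IV. ND-MNLL had 527, 758, 598 and 561 in wandering and 1547, 1801, 1517 and 1617 in feeding tubules, a log2 fold of -1.40 (SE 0.12, adjusted p = 3.04e-05). ND-75 had 224, 351, 260.0 and 242 in wandering and 658, 729, 616 and 677 in feeding tubules, a log2 fold of -1.30 (SE 0.13, adjusted p = 8.1e-05). The arrays were separated for both, and the share of all probe sets with such a separation was not counted. ND-19 (-1.29) and ND-B14.5B (-1.28) were close behind, while ND-B12 (-0.0028) and ND-MLRQ (-0.16) differed least. Of the 10 duplicates bright enough to be tested, 0 were called in limma, with 1 at an unadjusted p below 0.05, where 3.4% of all probe sets rose. The difference between the fat body and tubule effects was tested as an interaction, in which 3.33% of 14109 probe sets were higher in fat body and 4.07% lower. It called 0 of 50 main genes (14 at an unadjusted p below 0.05), so no main gene's fold was shown to differ between the tissues. COX5A (-0.04) and UQCR-11 (-0.01) had the smallest differences. Duplicates too dim to be tested in tubule entered the interaction through fat body alone, so for them it largely restates the fat body fold. All 17 duplicates had a positive interaction (median 1.69, with 13 at an unadjusted p below 0.05), and 1 was called, ATPsynepsilonL at 1.63 (SE 0.40, adjusted p = 0.0126). That call was lost with the pseudocount of 40%. The 12 testis markers were all positive as well (median 1.91, 1 called), and their part in the result was not tested.

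Few main genes differed between whole feeding larvae and the whole fly. Of 51 main genes 0 rose in limma (where 11.3% of 12336 probe sets rose) and 1 fell (where 22.4% did), and 15 had an unadjusted p below 0.05. Their median was -0.02, beside -0.28 for all probe sets. The 1 that fell was ND-B8, at 2.07, 6.55, 0.855 and 6.28 in whole larvae and 143, 47.4, 54.02 and 83.4 in the whole fly, a log2 fold of -2.64 (SE 0.28, adjusted p = 7.11e-06). ND-B22 (-0.01) and ND-13B (-0.01) differed least. Of the 17 duplicates 11 fell, with a median of -1.32. COX7AL had 22.5, 39.5, 23.1 and 25.9 in whole larvae and 122, 138, 126 and 184 in the whole fly, a log2 fold of -2.02 (SE 0.16, adjusted p = 8.24e-07), and its arrays were separated. The testis markers summed to 403 to 709 in whole larvae and to 2234 to 2801 in the whole fly, and their part in the result was not tested. COX6AL2 fell too, at -2.56.

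Mated spermathecae, which store sperm, were set against virgin ones. Of 50 main genes tested 0 were called in limma (5 at an unadjusted p below 0.05), where 0.266% of 12038 probe sets rose and 0.474% fell, and their folds lay between -0.35 and 0.24. UQCR-6.4 (-0.01) and COX8 (0.01) differed least. Of 7 duplicates tested 0 were called (0 at an unadjusted p below 0.05), with folds between -0.14 and 0.41, and the other 10 were too dim in both groups to be tested. The testis markers summed to 53.8 to 101 in mated and 65.4 to 74.3 in virgin spermathecae. Both groups had 2 rounds of amplification.

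Related genes outside the symbol rule were read from lists. Of 8 other chain genes, 1 rose and 5 fell in testes against ovary, where 22.9% of all probe sets rose and 32.5% fell. Cyt-c1L, the duplicate of the cytochrome c1 gene of complex III, had 763, 814, 762 and 695 in testes and 11.01, 11.4, 12.8 and 3.99 in ovary, a log2 fold of 5.30 (SE 0.14, adjusted p = 7.35e-11). Cyt-c1 itself had 118, 123, 129 and 120.1 in testes and 1056, 1102, 1147 and 1163 in ovary, a log2 fold of -3.09 (SE 0.063, adjusted p = 8.23e-12). The gonads were separated for both, in opposite directions. The ATP synthase genes sun (-2.13) and blw (-1.52), which encode the epsilon and alpha subunits, fell as well. Of 14 genes of the citrate cycle and pyruvate dehydrogenase, 5 rose and 6 fell, where the same shares over all probe sets apply. The fumarase genes Fum3 (6.42) and Fum4 (5.77) and the aconitase gene mAcon2 (5.55) led the increases, and Pdk, the kinase that inhibits pyruvate dehydrogenase (-3.62), and the cycle enzymes Scsalpha1 (-2.89) and Idh3a (-2.69) the decreases.

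Of 17 genes for protein import, carriers and mitochondrial fusion, 9 rose and 5 fell in testes against ovary, beside 22.9% and 32.5% of all probe sets, so the share that fell was near that over all. The import genes tomboy20 (7.12), Tim17b2 (6.95) and ttm2 (6.87) rose most, and Tom40 (-3.01), the pore of the outer membrane, Marf (-2.67), a mitofusin, and sesB (-2.53), an ADP/ATP carrier, fell most. tomboy20 and fzo stand on the testis marker list as well. Of 10 genes for complex assembly and mitochondrial DNA, 8 fell (32.5% of all probe sets did) and 9 had a negative fold, led by mtSSB (-4.64), which binds single-stranded mitochondrial DNA, Coa7 (-2.66) and Bcs1 (-2.28), a chaperone of complex III assembly. In thoracic muscle against the whole fly, the counts of rising and falling genes were 7 and 1 of the 8 other chain genes, 8 and 3 of 14 in the citrate cycle list, 4 and 8 of 16 tested in the import list, and 6 and 1 of 10 in the assembly list, where 16.8% of all probe sets rose and 32.3% fell. With the array labelled muscle replicate 4 kept they were 6 and 1, 7 and 3, 3 and 8, and 3 and 1.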

How the data were processed

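Labelled RNA was measured on 136 Affymetrix arrays. The authors deposited linear intensities, 1 for each probe set of an array. Which software, background correction and summary made them is not given in the sources used here. With 2% trimmed from both ends, array means ran from 100.002 to 100.006, so the deposited intensities share 1 trimmed mean. Each array was multiplied to 100.004 and used as log2(signal + 10). Of 18952 probe sets 183 controls were left out. The array annotation gave 13646 probe sets 1 symbol (13543 of these were joined through the gene table), 402 several and 4721 none, for 11981 genes, each read by its brightest probe set. COX6B, ND-49L, COX7CL and other genes without a probe set of 1 symbol were not analysed here.

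Groups came from the labels. Fits used limma 3.58.1 (R 4.3.3; functions lmFit and eBayes) on 2 groups at a time, or on the groups that the mean of tissues and the interaction need. A probe set was tested if 1 group's signal passed the 40th percentile, with Benjamini-Hochberg adjustment over all of them; calls needed an adjusted p below 0.05 and a 2-fold change. Tables and figures were made with Python 3.11.15, pandas 2.3.3, numpy 2.4.6 and matplotlib 3.10.9. No pairing of arrays by replicate number was seen: residual correlations ran from -0.468 to 0.544, above 0.1 throughout in 0 of 7 comparisons. With so few arrays per group this check cannot show that arrays were unpaired. On data simulated from testes against ovary, 50 of 50 genes were recovered at each of 4 fold sizes and 0 unchanged ones were called among 11616 tested. The changed genes were drawn from probe sets at or above the median signal, with independent normal noise. Recovery of dimmer genes was therefore not tested.

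Members and lists were chosen with earlier results of these data known. Named were every duplicate with its main gene, the 4 main genes with the largest fold each way and the 2 with the smallest in each comparison, those against the common direction, the brightest and dimmest of each complex, and up to 3 genes each way per list; the text gives part of them. ND-75 and COX7A in other groups, COX5BL in salivary gland and the dimmer COX7C probe set were singled out after their values were seen. The alternatives tried were quantile normalization, no rescaling, a pseudocount of 2% or of 40%, no filter or the 60th percentile, a replicate block, leave-one-out, all probe sets of a gene, 1 fit of all groups, numbered symbols counted as duplicates and the left-out arrays kept. Counting ND-MNLL as a duplicate, the mean in place of the median for the main gene level, and levels, correlations and array counts with the left-out arrays kept, were added after seeing the data.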

Additional observations from a re-analysis of the deposited data

Results flagged for a closer look

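Of 96 sets of 4 arrays examined (the main gene level in 32 groups, and single signals in testes and in both larval fat bodies), 20 held an array far from the other 3 by Dixon's criterion. Chance gives this in about 1 of 20 independent sets. The signals of a group share its arrays, so the count cannot be read against that rate. In feeding fat body, replicate 4 stood above the others in 15 sets. The signals there were 56.1 for ND-20L, 41.2 for ND-24L, 102 for SdhBL, 58.7 for SdhCL and 259 for COX4L. They were 133 for COX5BL, 64.5 for COX6AL, 117 for COX6CL, 107 for COX7AL and 153 for ATPsynCF6L. They were 166 for ATPsynGL, 69.4 for ATPsynbetaL, 44.9 for ATPsynepsilonL, 13.3 for ND-51L1 and 48.4 for COX6AL2. In wandering fat body, replicate 2 stood above the others for SdhAL (103), COX7AL (425) and COX6AL2 (158). In testes, SdhAL was low on replicate 3 at 405. Adult hindgut replicate 1 had a main gene level of 0.61, above the other 3 arrays. The effect of wandering on ATPsynepsilonL differed between fat body and tubule by 1.63 on the log2 scale, in limma's interaction test.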

How the results depend on the processing

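Of 718 recomputed counts, 687 stayed within 1.5 times the reported one and 31 did not, and among the other values 5611 kept direction and call, 98 gained a call, 42 lost one, 1 reversed and 27, all main gene levels of a group, moved. The one reversal was COX7C in testes against the mean of the other tissues, 0.93 with all probe sets averaged against -3.59. The 17 of 17 duplicates that rose in testes did so under every alternative run. In testes against the whole fly, main genes that rose numbered 3 under quantile normalization, 2 with the pseudocount of 2%, and 1 to 2 with an array left out (2 without testes replicate 4, whole fly replicate 1 or whole fly replicate 4). With the numbered duplicates counted in, 1 duplicate fell against the whole fly and 1 rose in muscle, both COX7AL2; counting ND-MNLL as one gave 1 that fell against the whole fly, against the mean of the other tissues and in tubule, and 1 that rose in muscle. With both left-out arrays kept, 0 main genes fell in muscle.

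In fat body, main genes that fell numbered 4 under quantile normalization and 5 to 16 with an array left out (7 without wandering replicate 2, 5 without feeding replicate 2). Duplicates that rose there numbered 0 with the pseudocount of 40%, 16 in 1 fit of all groups and 0 to 13 with an array left out (13 without feeding replicate 4). In the interaction, duplicates higher in fat body numbered 0 with 40%, 16 in 1 fit of all groups and 1 to 15 with an array left out (10 without wandering replicate 1, 15 without feeding replicate 4), and main genes 0 to 1 (1 without replicate 4 of wandering or of feeding fat body). In whole larvae 6 duplicates fell with 40%. In tubule 13 to 23 main genes fell with an array left out. The cause was not tested. Quantile normalization moved the median of all probe sets from -0.15 to -0.46 in testes against ovary, -0.63 to -0.15 against the whole fly, -0.34 to 0.18 in muscle, 0.10 to -0.12 in fat body and -0.28 to -0.05 in whole larvae. The share of calls that were higher went to 45.5% against 33.7% (testes against the whole fly), 50.3% against 34.2% (muscle), 32.9% against 45.8% (fat body) and 49.4% against 33.6% (whole larvae). It gave 22 main genes that fell in testes against ovary, 42 against the whole fly, and 39 that rose in muscle. With a replicate block, 17 duplicates rose and 17 main genes fell in testes against ovary, 8 main genes fell in fat body and 13 duplicates fell in muscle, with no other count changed. Signal over background limits what dim genes show, such as UQCR-11 outside muscle and ND-B8 in the 27 groups where its mean lay below the 40th percentile.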
